A study of Mus musculus with 16 samples.

Results

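The insulin and insulin-like growth factor (IGF) signalling genes described here are 10 genes fixed by name, namely the ligands Igf1 and Igf2, the receptors Igf1r and Insr, the receptor substrates Irs1 and Irs2, and the binding proteins Igfbp3, Igfbp4, Igfbp5 and Igfbp7. They were found in a table of raw counts by matching each Ensembl identifier, without its version, to a mouse symbol. Of the 10 genes, 9 were among the 21640 genes of the table, and Igf2 was not analysed here. The counts come from whole thyroids of male wild-type (WT) C57Bl/6J mice, a common inbred strain, 1 library per mouse and 16 mice in all. At 8 weeks of age mice either went on the HF+SD, a high-fat chow given with sucrose water, or stayed on the control chow diet (CD), and thyroids were taken after 3 weeks (3W) or 6 weeks (6W). Each of the 4 groups (CD and HF+SD at 3W, CD and HF+SD at 6W) holds 4 mice. The question asked of each time point is which of these genes differed between HF+SD and CD. The library names of the 2 time points carry different prefixes, so time cannot be told apart from what the prefixes mark, and no level is compared between 3W and 6W.

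IGF1 and IGF2 are secreted growth factors that act through the IGF1 receptor, a tyrosine kinase closely related to the insulin receptor. Both receptors pass the signal on through the substrates IRS1 and IRS2 to PI3-kinase, AKT and mTOR, which promote growth and nutrient storage, and to the FOXO transcription factors, which AKT restrains. IGF-binding proteins hold most of the IGF outside the cell and are cut by proteases. In thyrocytes, the hormone-producing cells of the gland, insulin or IGF1 acts together with thyrotropin (TSH) to support growth.

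Library totals ran from 30025256 to 48508653 counts. All 9 thyrocyte marker genes used here (Tg, Pax8 and Tshr among them) were detected in every library and took 4.82% to 14% of counts at 6W and 27.0% to 30.02% at 3W. Markers of other cells differed between the diet groups. At 6W, 14 skeletal muscle genes (Ckm, Acta1 and others) took 0.0774%, 2.74%, 11.5% and 8.39% of counts in M22, M43, M45 and M48, the mice on CD, against 0.0928% to 0.330% in the HF+SD mice, and all 14 were lower on HF+SD. The CD mouse M22 lay below every HF+SD mouse, so the muscle genes did not follow the diet mouse by mouse. At 3W they took at most 0.00515% in any library. Of 8 endothelial genes, 7 were higher on HF+SD at both time points. Of 8 macrophage genes, 7 were higher at 6W and 0 at 3W (1 of 8 at an unadjusted p under 0.05 in edgeR). Of 7 adipocyte genes, 6 were lower at 6W and 5 at 3W. In bulk tissue, fewer cells of a type and less RNA per cell cannot be told apart. How much muscle or other neighbouring tissue each sample held is not stated.

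Levels are given as CPM, the counts per 1000000 counts of the library after adjustment by TMM factors, and differences as the log2 fold change of HF+SD against CD from edgeR's quasi-likelihood test, with its standard error (SE). A gene was called changed at a Benjamini-Hochberg adjusted p under 0.05 over all tested genes. At 6W, 3 of the 9 measured genes were called, namely Igfbp7 higher and Irs1 and Igfbp5 lower, where 21.5% of all 18249 tested genes were called (12.0% higher, 9.55% lower). At 3W, 2 of 9 were called, namely Igfbp7 higher and Igfbp5 lower, where 14.9% of 17238 tested genes were called (9.07% higher, 5.78% lower). With a log2 fold change beyond 1 in size required as well, Igfbp7 and Irs1 were called at 6W (12.6% of all genes) and none of the 9 at 3W (4.66% of all genes). The 4 CD and 4 HF+SD libraries did not overlap for 2 of 9 genes at 6W (23.8% of all genes) and for 3 of 9 at 3W (23.6% of all genes). As shares of 9, the calls are 33.3% and 22.2%, and what follows describes each gene. Their median log2 fold change was 0.35 at 6W and 0.03 at 3W, against -0.01 and -0.01 over all tested genes. All 9 passed the low-count filter at both time points.

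**Figure D1:**
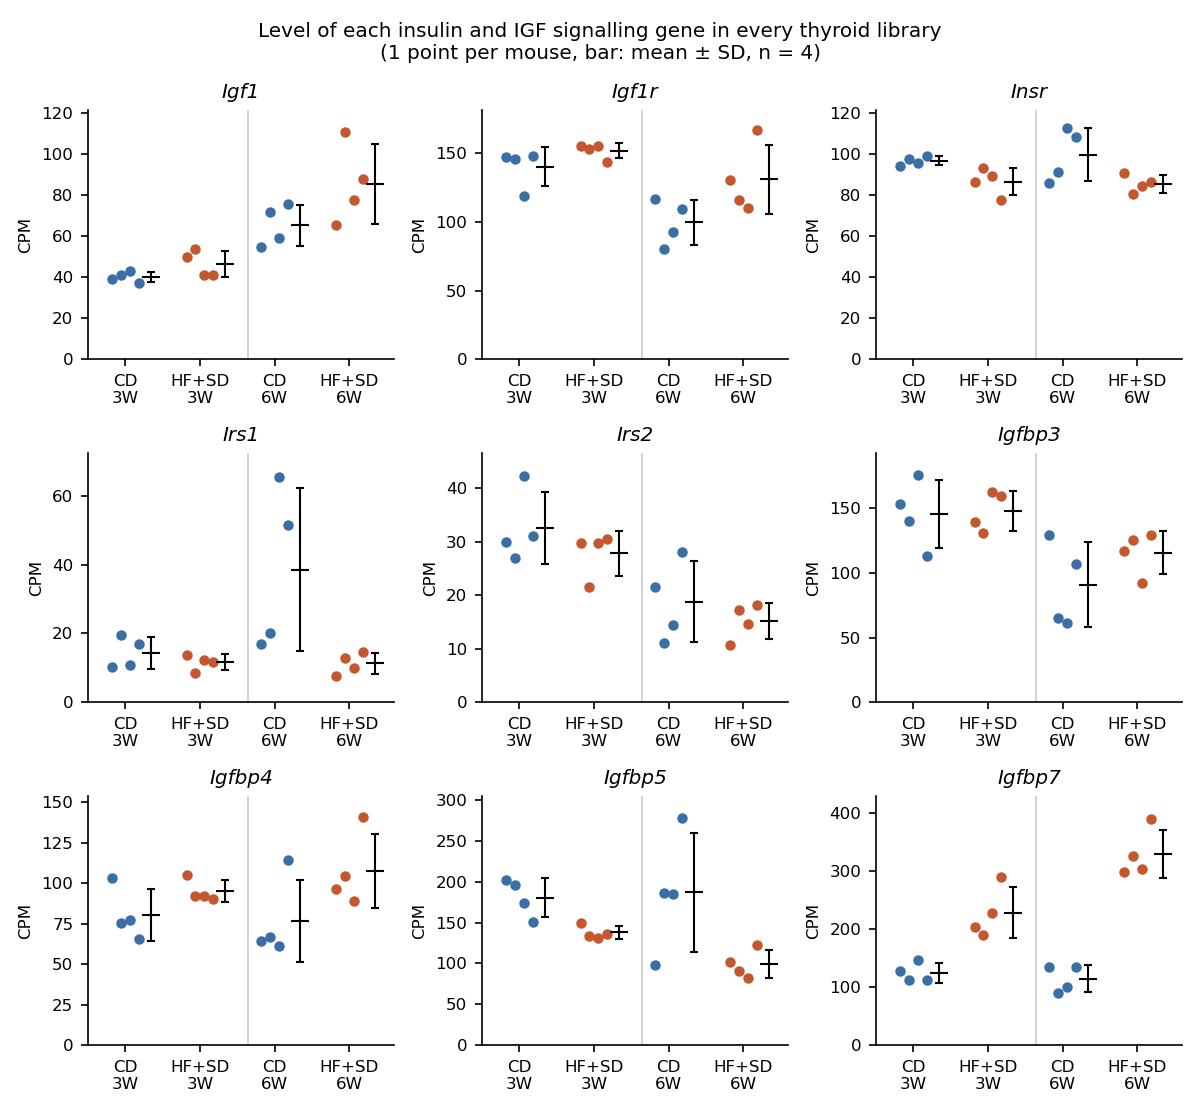
CPM of each of the 9 measured genes in every library, with the groups CD 3W, HF+SD 3W, CD 6W and HF+SD 6W on the horizontal axis (1 point per mouse, bar: mean ± SD, n = 4, each vertical axis from 0). The HF+SD libraries of Igfbp7 lie above all CD libraries of the same time point, while the CD libraries of Irs1 at 6W spread from 17.0 to 65.5 CPM.

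**Figure D2:**
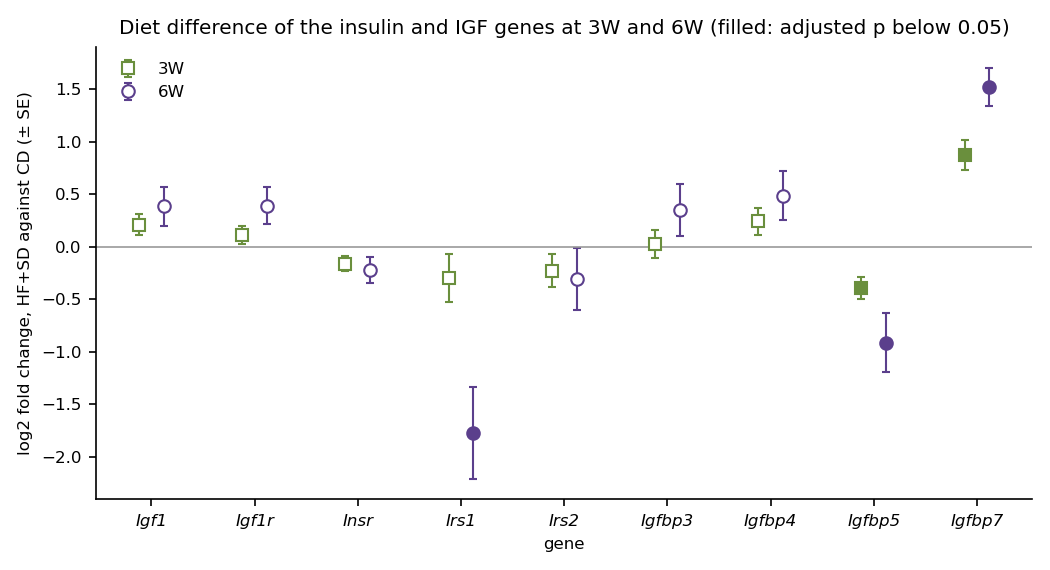
Log2 fold change of HF+SD against CD for each gene at 3W (squares) and 6W (circles), with bars of 1 SE and filled symbols where the edgeR adjusted p is below 0.05. Igfbp7 stands at 0.87 and 1.52, Igfbp5 at -0.39 and -0.91, and Irs1 at -0.30 and -1.77, called at 6W.

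Igfbp7, a secreted protein of the vessel wall that binds IGFs weakly and insulin as well, had the lowest p of the 9 genes at both time points. At 6W its level was 134, 89.2, 99.9 and 135 CPM in the CD mice and 299, 326, 303 and 390 CPM in the HF+SD mice. The lowest HF+SD mouse thus lay above the highest CD mouse by more than the whole CD range. This is a 2.87-fold higher level, with a log2 fold change of 1.52 (SE 0.18, edgeR adjusted p = 0.000865). At 3W the values were 127, 111, 147 and 112 CPM on CD and 203, 190, 228 and 289 CPM on HF+SD, again without overlap. The level was 1.83-fold higher, with a log2 fold change of 0.87 (SE 0.14, edgeR adjusted p = 0.00392). It was called in all 18 alternatives at 6W, with log2 fold changes of 1.05 to 1.61, and in all 17 at 3W, with 0.74 to 0.96.

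Endothelial markers moved with Igfbp7. The summed level of the 8 endothelial genes (Pecam1, Cdh5, Kdr, Tie1, Tek, Cldn5, Egfl7 and Esam) ran from 273.7 to 333.7 CPM on CD and from 927.6 to 1047 CPM on HF+SD at 6W, and from 394.8 to 498.1 CPM and from 705.5 to 1037 CPM at 3W, with no gene of the list at 0 in any library. Igfbp7 was therefore also set against these genes, a comparison chosen after the values were seen. Its log2 CPM minus the mean log2 CPM of the 8 genes was 2.14 ± 0.18 on CD and 2.21 ± 0.036 on HF+SD at 6W (SD, n = 4). The difference was 0.07, and the exact two-sided permutation p was 0.429 (0.43 adjusted over 4 comparisons, smallest p possible 0.0286). At 3W it was 1.70 ± 0.10 on CD and 1.83 ± 0.040 on HF+SD, a difference of 0.13 with an exact permutation p of 0.114 (0.15 adjusted). These p-values concern only the distance of Igfbp7 from the list mean, and with 4 mice a group they cannot show that it was the same on both diets. The part of the endothelial genes in the Igfbp7 difference was not tested. Pericyte and smooth muscle genes moved as well, with 5 of 7 higher at 6W (sums of 440.9 to 548.6 CPM on CD and 1098 to 1196 CPM on HF+SD) and 3 of 7 at 3W (368.6 to 434.5 CPM on CD and 460.2 to 729.8 CPM on HF+SD).

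**Figure D3:**
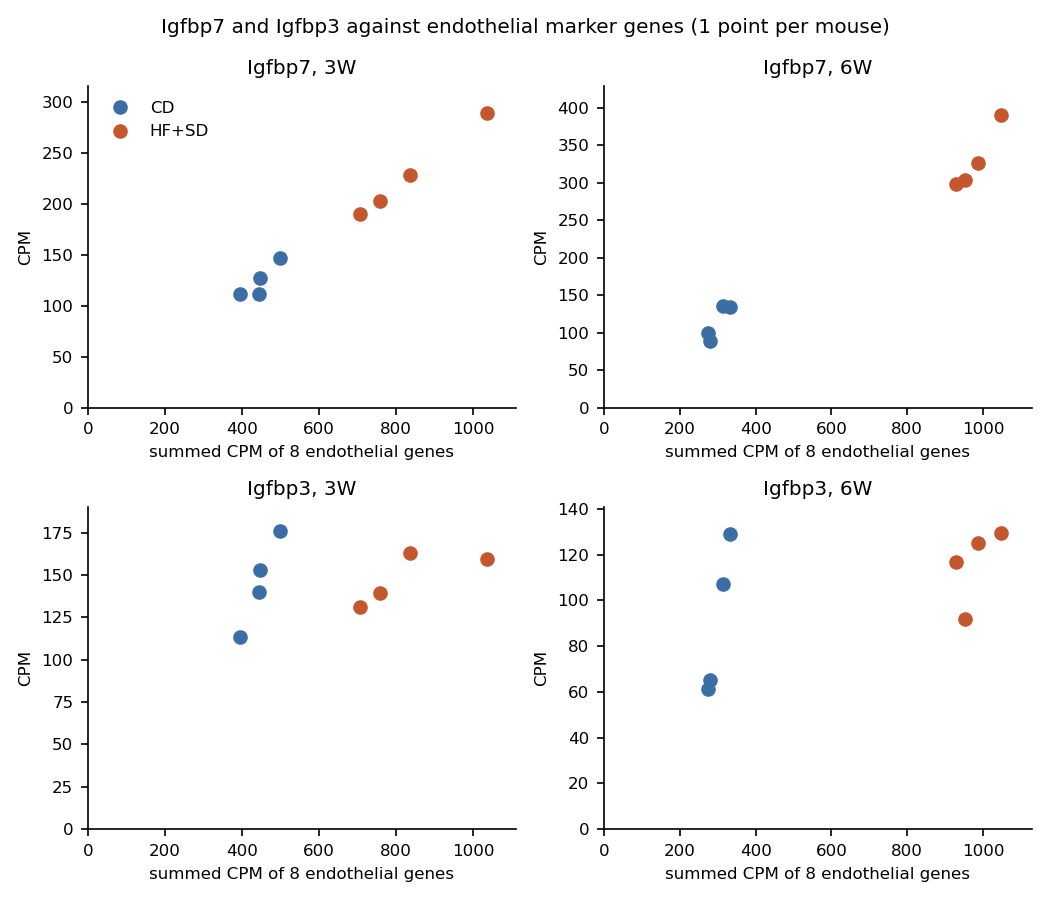
CPM of Igfbp7 (top) and Igfbp3 (bottom) against the summed CPM of 8 endothelial genes at 3W (left) and 6W (right), 1 point per mouse, blue for CD and orange for HF+SD. Igfbp7 is higher in the libraries with more endothelial signal at both time points, whereas the Igfbp3 values of the 2 diets overlap at endothelial sums that do not.

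Igfbp5, a binding protein that attaches to the extracellular matrix and is also made by muscle cells, was the 1 gene of the 9 called lower at both time points. At 3W its level was 203, 196, 174 and 150 CPM on CD and 150, 134, 131 and 136 CPM on HF+SD. The groups did not overlap, although the lowest CD mouse (150.3 CPM) and the highest HF+SD mouse (149.98 CPM) all but touched. The level was 1.31-fold lower, with a log2 fold change of -0.39 (SE 0.10, edgeR adjusted p = 0.0304). At 6W it was 98.5, 186, 185 and 278 CPM on CD and 102, 90.8, 82.2 and 122 CPM on HF+SD, so M22, the CD mouse with the least muscle signal, fell within the HF+SD range. The log2 fold change was -0.91 (SE 0.28, edgeR adjusted p = 0.0474). A fit that adjusted for a muscle score put the difference at 6W at -0.25 (edgeR adjusted p = 0.532), and with M22 as the only CD mouse it was -0.0046. That fit, like the others below with M22 as the only CD mouse, rests on 1 CD library. M22 also stood apart in other tissue. The 3 parathyroid genes took 1.71% of its counts, against 0.156% to 0.451% in the other CD mice at 6W and 0.0507% to 0.206% on HF+SD. The call at 6W was also lost when any mouse other than M22 was left out (-1.02 to -0.66 on the log2 scale, edgeR adjusted p up to 0.127). It was lost at 6W also with no count filter and with limma on the deposited signal (adjusted p = 0.0505 and 0.0694). At 3W, where muscle genes took at most 0.00515% of counts, the call was lost with the muscle score as a covariate (-0.29, edgeR adjusted p = 0.211), under scaling to thyrocyte lineage genes (-0.38, adjusted p = 0.136) and in 1 fit of all 16 libraries (-0.39, adjusted p = 0.345). The muscle score at 3W lies near the floor, since the 14 genes summed to 2.65 to 50.57 CPM on CD and 17.57 to 44.3 CPM on HF+SD. The fit with that covariate therefore cannot show what part muscle has. The call at 3W was lost too without M53, M54, M19y, M20y or M31 (-0.38 to -0.34, edgeR adjusted p up to 0.0876).

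Irs1, the substrate that links both receptors to PI3-kinase, differed widely among the CD mice at 6W. At 6W its level was 17.0, 20.2, 65.5 and 51.6 CPM on CD (M22, M43, M45 and M48, in that order) and 7.75, 13.0, 10.1 and 14.5 CPM on HF+SD. The groups did not overlap, but M22 and M43 stood close to the HF+SD mice and the others stood far above. The mean level was 3.41-fold lower on HF+SD, with a log2 fold change of -1.77 (SE 0.44, edgeR adjusted p = 0.0211). M45 and M48 were also the libraries with the most muscle counts, 11.5% and 8.39%. After adjustment for the muscle score the log2 fold change was -0.77 (edgeR adjusted p = 0.228), and with M22 as the only CD mouse -0.60 (edgeR adjusted p = 0.317). The call was lost without M48, M5, M18 or M34, at -1.83 to -1.60 (edgeR adjusted p = 0.0559 to 0.0641). At 3W Irs1 was at 10.1, 19.6, 10.8 and 16.8 CPM on CD and 13.8, 8.60, 12.4 and 11.8 CPM on HF+SD, which overlap, with a log2 fold change of -0.30 (SE 0.23, edgeR adjusted p = 0.412). In the GENCODE M21 annotation, 2822 of the 9144 exon bases of Irs1 lie opposite exons of Gm9747 on the other strand. The sources used here do not say whether counting used strand, and without it reads of the 2 genes cannot be told apart.

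**Figure D4:**
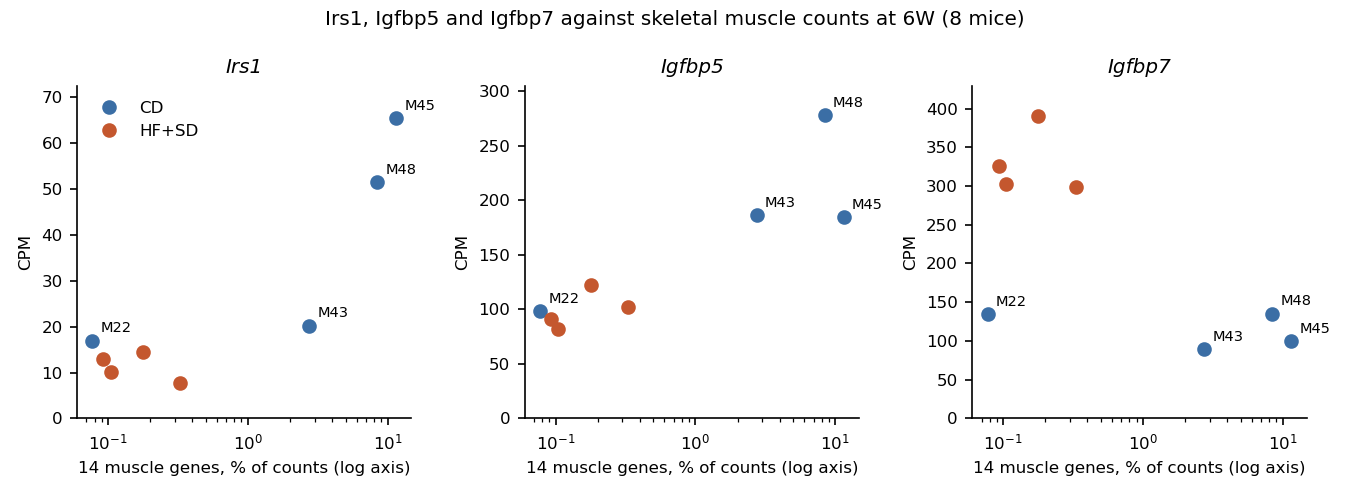
CPM of Irs1, Igfbp5 and Igfbp7 at 6W against the percentage of all counts taken by 14 skeletal muscle genes (log axis), 1 point per mouse, with the CD mice named. For Irs1 and Igfbp5 the CD mouse M22, at 0.0774%, lies beside the HF+SD mice, whereas for Igfbp7 it lies at 134 CPM with the other CD mice.

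Irs2, the other substrate, was not called at either time point. At 6W it was at 21.6, 11.1, 14.3 and 28.0 CPM on CD and 10.6, 17.3, 14.7 and 18.2 CPM on HF+SD, a log2 fold change of -0.30 (SE 0.29, edgeR adjusted p = 0.492). The HF+SD range lay almost wholly inside the CD range. At 3W the CD mice had 30.03, 26.9, 42.3 and 31.2 CPM and the HF+SD mice 29.7, 21.6, 29.7 and 30.5 CPM, a log2 fold change of -0.23 (SE 0.16, edgeR adjusted p = 0.360).

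Igfbp3, the main IGF carrier of blood plasma, did not pass the test at either time point. At 6W it was at 129, 65.4, 61.3 and 107 CPM on CD and 117, 125, 92.1 and 129 CPM on HF+SD, with a log2 fold change of 0.35 (SE 0.25, edgeR adjusted p = 0.344). At 3W the values were 153, 140, 176 and 113 CPM on CD and 139, 131, 163 and 159 CPM on HF+SD, with a log2 fold change of 0.03 (SE 0.13, edgeR adjusted p = 0.914). The groups overlapped at both times. In the way given for Igfbp7, its log2 CPM minus the mean of the 8 endothelial genes was also compared. This value was lower on HF+SD by 1.06 at 6W (1.76 ± 0.44 on CD and 0.70 ± 0.19 on HF+SD) and by 0.70 at 3W (1.92 ± 0.17 and 1.22 ± 0.14, SD, n = 4). The exact permutation p was 0.0286 both times, the smallest possible, and 0.057 adjusted over the 4 comparisons. Igfbp3 itself did not fall while the endothelial genes rose without overlap, so these p-values reflect that rise. They do not show a decrease of Igfbp3.

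Igfbp4, a binding protein that mostly restrains IGF action until the protease PAPP-A cuts it, was at 64.5, 67.0, 61.3 and 115 CPM on CD and 96.7, 104, 89.2 and 141 CPM on HF+SD at 6W. Apart from M48, each CD mouse lay below every HF+SD mouse. The log2 fold change was 0.49 (SE 0.23, edgeR adjusted p = 0.166), and without M48 it was 0.74 (edgeR adjusted p = 0.0366). At 3W the CD mice had 103, 75.2, 77.5 and 65.2 CPM and the HF+SD mice 105, 92.2, 92.2 and 90.5 CPM, a log2 fold change of 0.24 (SE 0.13, edgeR adjusted p = 0.235) that became 0.38 without M53 (edgeR adjusted p = 0.0361).

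The ligand Igf1 did not pass the test. Its level at 6W was 54.7, 71.9, 59.2 and 75.4 CPM on CD and 65.2, 111, 77.4 and 88.0 CPM on HF+SD, a log2 fold change of 0.39 (SE 0.18, edgeR adjusted p = 0.165). At 3W it was 39.2, 40.9, 43.1 and 36.9 CPM on CD and 49.8, 53.5, 41.3 and 41.0 CPM on HF+SD, a log2 fold change of 0.21 (SE 0.10, edgeR adjusted p = 0.194). The groups overlapped at both times.

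Neither receptor passed the test. Igf1r was at 116, 80.5, 92.3 and 110 CPM on CD and 130, 116, 110 and 167 CPM on HF+SD at 6W, a log2 fold change of 0.39 (SE 0.18, edgeR adjusted p = 0.145). At 3W it was at 147, 146, 119 and 148 CPM on CD and 155, 153, 156 and 144 CPM on HF+SD, a log2 fold change of 0.12 (SE 0.086, edgeR adjusted p = 0.392). Insr was at 85.9, 91.2, 112 and 108 CPM on CD and 90.7, 80.3, 84.1 and 86.3 CPM on HF+SD at 6W, a log2 fold change of -0.22 (SE 0.13, edgeR adjusted p = 0.245). At 3W every HF+SD mouse (86.3, 92.8, 89.0 and 77.6 CPM) lay below every CD mouse (94.1, 97.4, 95.5 and 99.1 CPM). That difference was small, with a log2 fold change of -0.16 (SE 0.073, edgeR adjusted p = 0.171). The positive values of Igf1, Igf1r, Igfbp3 and Igfbp4 at 6W turned negative (-0.16, -0.090, -0.083 and -0.043) when libraries were scaled to 9 thyrocyte lineage genes, a scaling that moved the median of all genes from -0.01 to -0.51. Relative to that median they remained positive.

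The promoters of the 3 called genes are shown because the diet groups differed in their transcript levels. They are RefSeq windows of 250 bases before to 50 bases after the start in build GRCm38.p6, found for 9 of the 10 genes, with Insr missing from the table. They were searched on both strands for a FOXO site (TGTTTAC), a cAMP response element (TGACGTCA), a GC box (GGGCGG) and a TATA box (TATAAA). These letters occur in 3.65%, 1.79%, 35.7% and 13.6% of the 32851 promoters of the table. Capitals mark the matches, 5′ to 3′ on the strand of the gene.
Igfbp7 (chr5:77407996-77408295, minus strand): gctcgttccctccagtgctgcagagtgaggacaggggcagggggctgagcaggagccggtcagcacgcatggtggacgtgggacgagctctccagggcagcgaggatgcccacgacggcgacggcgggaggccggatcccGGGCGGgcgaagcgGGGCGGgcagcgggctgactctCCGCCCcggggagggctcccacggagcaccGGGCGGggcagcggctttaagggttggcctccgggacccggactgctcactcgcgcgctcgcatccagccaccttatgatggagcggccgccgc
Igfbp5 (chr1:72874816-72875115, minus strand): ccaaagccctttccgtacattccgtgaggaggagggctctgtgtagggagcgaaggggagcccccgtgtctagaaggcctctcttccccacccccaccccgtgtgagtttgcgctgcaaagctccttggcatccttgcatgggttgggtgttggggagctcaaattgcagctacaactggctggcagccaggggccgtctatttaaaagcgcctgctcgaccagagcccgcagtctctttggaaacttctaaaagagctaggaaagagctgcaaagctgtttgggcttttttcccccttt
Irs1 (chr1:82291390-82291689, minus strand): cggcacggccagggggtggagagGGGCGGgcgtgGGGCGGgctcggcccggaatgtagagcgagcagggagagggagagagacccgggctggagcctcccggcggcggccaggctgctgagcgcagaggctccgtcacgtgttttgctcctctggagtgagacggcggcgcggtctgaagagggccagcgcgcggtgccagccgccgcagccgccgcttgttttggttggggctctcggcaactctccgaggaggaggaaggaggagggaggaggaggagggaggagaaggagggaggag

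The Igfbp7 promoter held 4 GC boxes and had a GC content of 73.3%, and that of Irs1 held 2 GC boxes at 71.3%, where the median of all promoters was 52.7%. The Igfbp5 promoter, at 56.3%, held none of the searched letters. No match says only that these letters are not in the window.

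Per kilobase of annotated exon, the binding proteins stood above the receptors and the receptors above the substrates, with the exceptions given here. Igfbp7 was highest in each of the 4 groups, from 94.8 ± 20 CPM per kb on CD to 272.5 ± 35 on HF+SD at 6W (SD, n = 4), and did not overlap the next gene in any of them. At 3W on CD the order below it was Igfbp3 (46.5 ± 8.3 CPM per kb), Igfbp5 (30.1 ± 3.9), Igfbp4 (18.2 ± 3.6), Igf1r (8.35 ± 0.84), Insr (7.02 ± 0.16), Irs2 (5.16 ± 1.1), Igf1 (4.04 ± 0.26) and Irs1 (1.57 ± 0.51). Of these neighbours, Insr and Igf1r overlapped over the 4 mice, as did Igf1 and Irs2. At 3W on HF+SD Igfbp5 (22.9 ± 1.4 CPM per kb) and Igfbp4 (21.5 ± 1.5) overlapped, as did Igf1 (4.68 ± 0.63) and Irs2 (4.41 ± 0.67), which stood in the opposite order to CD. At 6W on CD the levels of Igfbp5 (31.1 ± 12 CPM per kb), Igfbp3 (29.0 ± 11) and Igfbp4 (17.4 ± 5.7) overlapped in turn, and so did those from Insr (7.24 ± 0.94) through Igf1, Igf1r and Irs1 to Irs2 (2.97 ± 1.2). At 6W on HF+SD Igfbp3 (37.0 ± 5.3 CPM per kb), Igfbp4 (24.4 ± 5.2) and Igfbp5 (16.5 ± 2.9) each overlapped the next. Below them Igf1 (8.61 ± 2.0 CPM per kb) stood above Igf1r (7.79 ± 1.5) and Insr (6.21 ± 0.32), each overlapping the next, and Irs1 was lowest at 1.24 ± 0.33.

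Whether the diet difference itself differed between 6W and 3W was asked with an interaction term in a fit of all 16 libraries. None of the 9 genes passed in edgeR, where 0.0792% of 18929 tested genes did, and 2 had an unadjusted p under 0.05. These were Irs1, at -1.54 (6W minus 3W on the log2 scale, SE 0.54, edgeR adjusted p = 0.113), and Igfbp7, at 0.59 (SE 0.25, edgeR adjusted p = 0.171). DESeq2 called 1 of the 9, Irs1 (-1.50, DESeq2 adjusted p = 0.0465). Without M22, edgeR called Irs1 (-1.78, adjusted p = 0.0239) and Igfbp5 (-0.77, adjusted p = 0.0394). M22 is the CD mouse at 6W with the least muscle signal. Adjusting for the muscle score left Irs1 at -0.30 and Igfbp5 at 0.19 (edgeR adjusted p = 0.882 and 0.870). Igfbp7 was then at 0.45 (edgeR adjusted p = 0.623). That score lies near the floor at 3W, so the adjusted fit cannot show what part muscle has. Scaling to thyrocyte lineage genes put Irs1 at -2.12, Igfbp5 at -1.12 and Igfbp7 at 0.17 (edgeR adjusted p = 0.0555, 0.111 and 0.684).

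The genes whose deviations from the group means followed each of the 9 most closely over the 16 libraries were named from 17024 genes tested at both time points, as a description. The libraries share depth and cell content, so such correlations are not independent of either. Deviations were not scaled by group, so a group with a wide spread weighs most. For Irs1 this was CD at 6W, with an SD of 23.8 CPM, against 3.00 on HF+SD at 6W and 4.63 and 2.22 on CD and HF+SD at 3W. Igfbp5 too spread most on CD at 6W, with an SD of 73.2 CPM against 17.4 on HF+SD. Its SDs at 3W were 23.7 and 8.40 CPM on CD and HF+SD. The deviations themselves were taken on log2 CPM. For Igfbp7 the closest genes were Tie1 (Pearson r = 0.956) and Mmrn2 (0.941), both known from endothelial cells. For Igfbp5 they were Tmeff2 (0.879) and Tnnt1 (0.876), the slow skeletal muscle troponin T. For Irs1 they were Tob1 (0.946) and Rbfa (0.935). For Igf1r they were Cd47 (0.949) and Zbtb45 (0.933), for Igfbp3 Ddost (0.936) and Rab5c (0.930), and for Insr Gzmm (0.908) and Ndufb4 (0.907). Values were 0.905 for Irs2 with Gm9320, 0.890 for Igfbp4 with H2-DMa and 0.763 for Igf1 with Syp.

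The other genes of the pathway were taken as 8 lists with 88 genes, of which 84 were in the table. At 6W, 16 of 82 tested were called (5 higher and 11 lower, or 19.5%, where 21.5% of all genes were called), with a median log2 fold change of -0.09. At 3W, 18 of 83 were called (3 higher and 15 lower, or 21.7%, where 14.9% of all genes were), with a median of -0.12. With the muscle score as a covariate 11 were called at 6W. The shares called in single lists, given below, stand against 21.5% of all genes at 6W and 14.9% at 3W.

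**Figure D5:**
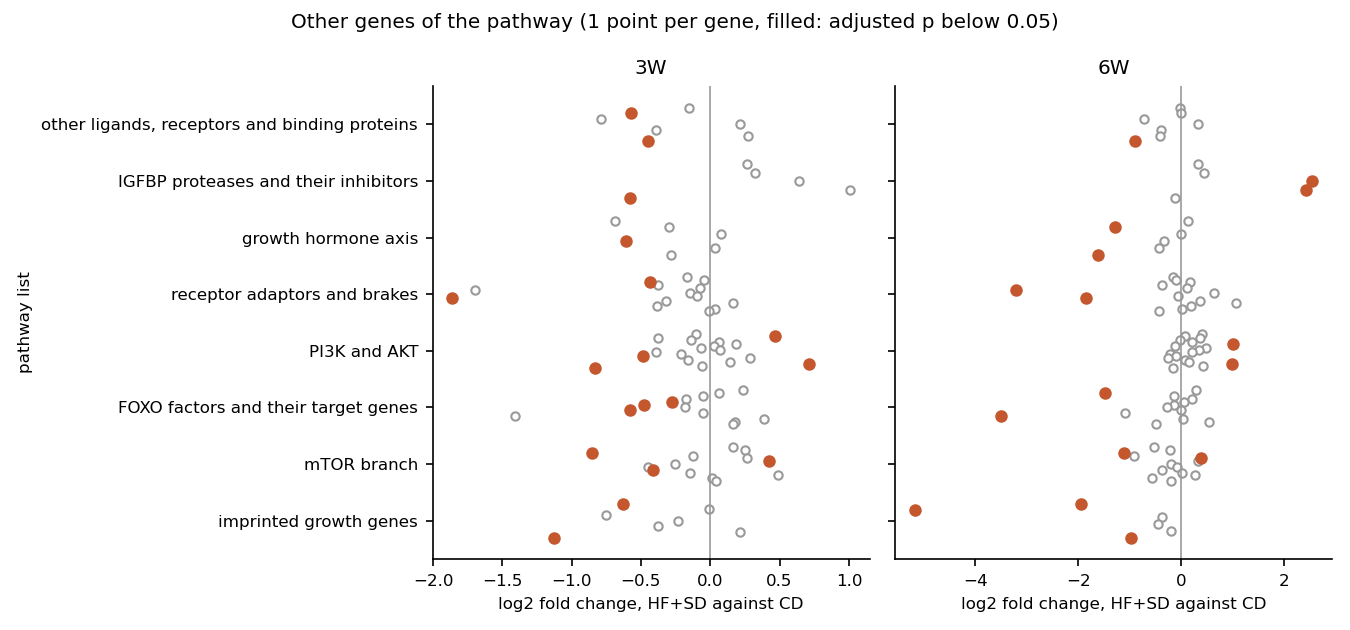
Log2 fold change of HF+SD against CD for each tested gene of the 8 pathway lists at 3W (left) and 6W (right, a wider axis), with filled points where the edgeR adjusted p is below 0.05. At 3W 15 of the 18 filled points lie below 0, and at 6W the lowest is H19 at -5.18, a value that turned to 1.39 with M22 as the only CD mouse.

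Among other ligands, receptors and binding proteins, 1 of 7 tested genes was lower at 6W (14.3%) and 2 of 7 at 3W (28.6%). None was higher. Insrr, an orphan relative of the insulin receptor that senses alkaline pH, was lower at both. Its level at 6W was 21.0, 24.9, 14.3 and 18.8 CPM on CD and 10.6, 9.65, 10.1 and 12.0 CPM on HF+SD, without overlap (log2 fold change -0.90, SE 0.18, edgeR adjusted p = 0.00998). At 3W it fell by 0.45 on the log2 scale (SE 0.12, edgeR adjusted p = 0.0326), a call kept in 3 of the 8 fits with a mouse left out (adjusted p up to 0.0912). Igf2bp2, an RNA-binding protein named for Igf2 mRNA, was lower at 3W, at 43.1 ± 6.6 CPM on CD and 29.0 ± 3.6 on HF+SD (SD, n = 4, log2 fold change -0.57, SE 0.13, edgeR adjusted p = 0.0165). Its log2 fold change at 6W was -0.01 (edgeR adjusted p = 0.978). The IGF2 scavenger receptor Igf2r had log2 fold changes of 0.33 at 6W and 0.21 at 3W (edgeR adjusted p = 0.163 and 0.0586).

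Among the IGFBP proteases and their inhibitors, 2 of 5 were higher at 6W (40%) and 1 of 5 lower at 3W (20%). Pappa2, a protease that cuts IGFBP3 and IGFBP5, was scarce but did not overlap at 6W, with 0.229, 0.274, 0.130 and 0.256 CPM on CD and 1.53, 1.25, 1.37 and 1.18 CPM on HF+SD. This is a 5.84-fold higher level (log2 fold change 2.55, SE 0.27, edgeR adjusted p = 0.000439). The Pappa2 groups overlapped at 3W, with a log2 fold change of 0.64 (edgeR adjusted p = 0.372). Stc1, a stanniocalcin that inhibits these proteases, was at 8.37, 5.52, 2.11 and 3.47 CPM on CD and 35.4, 32.2, 18.7 and 18.4 CPM on HF+SD at 6W, 5.37-fold higher (log2 fold change 2.42, SE 0.42, edgeR adjusted p = 0.00497). At 3W the log2 fold change of Stc1 was 1.01 (edgeR adjusted p = 0.0552), while its relative Stc2 was lower (34.4 ± 8.7 CPM on CD, 23.0 ± 1.9 on HF+SD, edgeR adjusted p = 0.0351). Stc2 stood at -0.11 on the log2 scale at 6W (edgeR adjusted p = 0.739). Pappa itself, which cuts IGFBP4, had log2 fold changes of 0.44 and 0.32 (edgeR adjusted p = 0.307 and 0.583).

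Of the 6 genes of the growth hormone axis, 2 were lower at 6W (33.3%) and 1 at 3W (16.7%). At 6W these were Stat5b, a transcription factor activated by the growth hormone receptor, at 34.1, 37.0, 137 and 81.8 CPM on CD and 21.1, 24.8, 23.1 and 25.4 CPM on HF+SD, and the receptor gene Ghr, at 56.5, 117, 251 and 189 CPM on CD and 58.5, 69.4, 55.5 and 69.5 CPM on HF+SD. Both were highest in the CD mice with the most muscle counts, and M22 overlapped the HF+SD mice for Ghr. Their log2 fold changes of -1.62 and -1.28 (edgeR adjusted p = 0.0232 and 0.0417) became -0.66 and -0.14 with the muscle score as a covariate (adjusted p = 0.239 and 0.723), and that of Ghr became 0.15 with M22 as the only CD mouse. At 3W Socs2, a feedback inhibitor of this pathway, was lower at 102 ± 17 CPM on CD and 66.8 ± 14 on HF+SD (log2 fold change -0.61, SE 0.16, edgeR adjusted p = 0.0340). Its log2 fold change at 6W was -0.32 (edgeR adjusted p = 0.409).

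Of 14 receptor adaptors and brakes, 2 were lower at each time point and none was higher. That is 14.3% each time, beside 21.5% of all genes at 6W and 14.9% at 3W. Sh2b2, an adaptor that binds the activated insulin receptor, was lower at both. At 6W it was at 9.66, 7.58, 5.36 and 5.48 CPM on CD and 2.00, 2.73, 1.10 and 2.01 CPM on HF+SD (log2 fold change -1.84, SE 0.31, edgeR adjusted p = 0.00410). At 3W it was at 9.13, 10.5, 8.15 and 13.6 CPM on CD and 4.25, 2.69, 2.82 and 1.69 CPM on HF+SD (log2 fold change -1.86, SE 0.27, edgeR adjusted p = 0.00209). Irs4, a further receptor substrate, was at 1.98, 0.867, 1.27 and 0.767 CPM on CD and 0.0791, 0.282, 0.0581 and 0.107 CPM on HF+SD at 6W, a log2 fold change of -3.21 at very low counts (SE 0.51, edgeR adjusted p = 0.00323). Its value at 3W was -1.70 (edgeR adjusted p = 0.0992). Grb10, an imprinted inhibitor of both receptors, was lower at 3W (85.6 ± 6.7 CPM on CD and 63.4 ± 3.1 on HF+SD, log2 fold change -0.43, SE 0.078, edgeR adjusted p = 0.00632). At 6W its log2 fold change was 0.16 (edgeR adjusted p = 0.409), and the difference between the time points was 0.54 (SE 0.14, edgeR adjusted p = 0.0623).

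Of 18 PI3K and AKT genes, 2 were higher at 6W (11.1%), and 2 were higher and 2 lower at 3W (22.2% together). Pik3r3, a regulatory subunit of PI3-kinase, was higher at both. It was at 42.1, 47.8, 32.8 and 32.2 CPM on CD and 64.2, 85.4, 86.4 and 73.3 CPM on HF+SD at 6W (log2 fold change 1.00, SE 0.17, edgeR adjusted p = 0.00438). At 3W it was at 43.4, 35.5, 35.5 and 30.3 CPM on CD and 50.8, 70.8, 54.1 and 61.4 CPM on HF+SD (log2 fold change 0.71, SE 0.13, edgeR adjusted p = 0.00708). Inpp5d, a lipid phosphatase mostly of blood cells, was at 5.49 ± 0.42 CPM on CD and 11.0 ± 2.1 on HF+SD at 6W (log2 fold change 1.00, SE 0.17, edgeR adjusted p = 0.0048). The summed level of 8 macrophage genes moved with it, from 138 to 177.4 CPM on CD and from 255.2 to 329.9 CPM on HF+SD, and its part was not tested. At 3W the catalytic subunit Pik3cb was lower (log2 fold change -0.49, SE 0.10, edgeR adjusted p = 0.0118), as was Trib3, a pseudokinase that can bind AKT (6.55 ± 1.1 CPM on CD, 3.67 ± 0.61 on HF+SD, edgeR adjusted p = 0.0123). The log2 fold changes of Pik3cb and Trib3 at 6W were -0.10 and -0.16 (edgeR adjusted p = 0.740 and 0.659). The fourth gene called at 3W was Akt2, an AKT kinase, at 229, 298, 194 and 224 CPM on CD and 291, 359, 315 and 343 CPM on HF+SD. The groups overlapped through 1 CD mouse, and the log2 fold change was 0.47 (SE 0.13, edgeR adjusted p = 0.0382). At 6W it was 0.07 (edgeR adjusted p = 0.865). The rule of 3 genes per list would not have named Akt2, which was added after its value was seen and was not run under the alternatives.

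Of 13 FOXO factors and genes that FOXO proteins are known to activate, 2 were lower at 6W (15.4%) and 3 at 3W (23.1%). None was higher. Pdk4, which restrains glucose oxidation, was at 46.6, 233, 931 and 845 CPM on CD and 62.3, 32.6, 33.3 and 53.6 CPM on HF+SD at 6W, with M22 inside the HF+SD range. Its log2 fold change of -3.50 (SE 0.79, edgeR adjusted p = 0.0160) became -0.73 with the muscle score as a covariate (adjusted p = 0.0778) and -0.05 with M22 as the only CD mouse (adjusted p = 0.949). The repressor Bcl6 at 6W was at 15.7, 19.5, 49.96 and 42.6 CPM on CD and 13.4, 5.92, 9.85 and 16.6 CPM on HF+SD, likewise highest in M45 and M48. Its log2 fold change was -1.48 (edgeR adjusted p = 0.0377) and -0.57 with the covariate (adjusted p = 0.338). At 3W, with muscle genes at most 0.00515% of counts, Foxo3 itself was at 123, 142, 207 and 156 CPM on CD and 110, 80.0, 115 and 116 CPM on HF+SD (log2 fold change -0.58, SE 0.17, edgeR adjusted p = 0.0480). Cited2 and the cell-cycle inhibitor Cdkn1b were lower by 0.48 and 0.28 on the log2 scale (edgeR adjusted p = 0.0204 and 0.0481). The calls of Foxo3 and Cdkn1b were each kept in 1 of 8 fits with a mouse left out (adjusted p up to 0.110 and 0.128). At 6W the log2 fold changes of Foxo3, Cited2 and Cdkn1b were 0.005, -0.13 and 0.06 (edgeR adjusted p = 0.986, 0.664 and 0.729).

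Of 13 genes of the mTOR branch, 1 was higher and 1 lower at 6W (15.4%), and 1 higher and 2 lower at 3W (23.1%). Eif4ebp1, the translation repressor that mTOR switches off, was lower at both. It was at 27.2, 33.9, 48.7 and 45.4 CPM on CD and 18.5, 17.5, 17.1 and 18.8 CPM on HF+SD at 6W (log2 fold change -1.11, SE 0.19, edgeR adjusted p = 0.00411). These CD values had the same order as the muscle counts, although M22 too lay above every HF+SD mouse. The call at 6W was kept in all 8 fits with a mouse left out. It was lost in 1 of 18 alternatives, whose log2 fold changes ran from -1.68 to -0.62. At 3W it was at 24.1, 22.8, 33.1 and 25.1 CPM on CD and 15.7, 13.7, 15.5 and 13.3 CPM on HF+SD (log2 fold change -0.86, SE 0.13, edgeR adjusted p = 0.00248). Mtor, the kinase, was higher at 3W at 105, 118, 122 and 105 CPM on CD and 149, 153, 136 and 166 CPM on HF+SD (log2 fold change 0.42, SE 0.087, edgeR adjusted p = 0.0117), and Rps6kb1, the S6 kinase, was lower (log2 fold change -0.41, SE 0.098, edgeR adjusted p = 0.0220). Their values at 6W were 0.33 and -0.36 (edgeR adjusted p = 0.118 and 0.0668). Mlst8, a subunit of both mTOR complexes, was higher at 6W by 0.38 (edgeR adjusted p = 0.0480). The call was kept in 1 of 8 fits with a mouse left out. Under scaling to thyrocyte lineage genes the value was -0.13, above the median of all genes, which that scaling put at -0.51.

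Of 7 imprinted growth genes, 3 of 6 tested were lower at 6W (50%) and 2 of 7 at 3W (28.6%). Plagl1, a zinc finger factor of the imprinted gene network, was the gene of the pathway lists with the lowest p at 3W. It was at 23.8, 20.7, 30.2 and 23.8 CPM on CD and 11.0, 11.9, 10.8 and 11.3 CPM on HF+SD at 3W (log2 fold change -1.13, SE 0.12, edgeR adjusted p = 0.000505). At 6W it was at 25.6, 18.7, 17.2 and 19.9 CPM on CD and 13.8, 10.3, 8.02 and 9.31 CPM on HF+SD (log2 fold change -0.98, SE 0.20, edgeR adjusted p = 0.0111). Cdkn1c, a growth-restraining cell-cycle inhibitor, was lower at 3W (5.75 ± 0.75 CPM on CD, 3.71 ± 0.46 on HF+SD, edgeR adjusted p = 0.0210). At 6W its values of 4.16, 6.50, 21.7 and 16.9 CPM on CD followed the muscle counts, and its log2 fold change of -1.94 (edgeR adjusted p = 0.0226) became -0.62 with the covariate (adjusted p = 0.275). H19, the noncoding RNA next to Igf2, was at 1.89, 90.6, 327 and 308 CPM on CD and 10.8, 3.10, 2.44 and 3.68 CPM on HF+SD at 6W, and M22 was below every HF+SD mouse. Its log2 fold change of -5.18 (SE 1.2, edgeR adjusted p = 0.0194) became -0.22 with the covariate (adjusted p = 0.676).

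Of the called values, those of Igfbp7 and of Insrr, Pappa2, Irs4, Sh2b2 and Plagl1 at 6W, and those of Igfbp7, Sh2b2, Pik3cb, Pik3r3, Mtor, Eif4ebp1 and Plagl1 at 3W, were called under every alternative that gave a value. At 6W the calls of Ghr, Bcl6 and Cdkn1c were each kept in 2 of 8 fits with a mouse left out, that of Stat5b in 3, that of H19 in 5 and that of Pdk4 in 6. At 3W those of Cdkn1c and Socs2 were kept in 3, those of Cited2 and Stc2 in 4, that of Rps6kb1 in 5 and that of Igf2bp2 in 7. The calls of Stc1 at 6W and of Grb10 and Trib3 at 3W were each lost in 1 alternative. Those of Pik3r3 and Inpp5d at 6W were each lost in 2. Each of these calls was kept in all 8 fits with a mouse left out. The lowest log2 fold changes of Stc1, Pik3r3 and Inpp5d at 6W over the alternatives were 1.63, 0.50 and 0.49.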

How the data were processed

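Poly(A) RNA of 16 mouse thyroids, 4 per diet and time point, was sequenced as 150 bp read pairs, 1 library per mouse. Per the submitters' processing notes, Trim Galore 0.6.7, STAR, DESeq2 1.36.0, R 4.1.0 and the build mm39 were used. For the annotation, the gene filter and the use of strand: not given in the sources used here. The authors deposited raw counts per gene, with no normalization, and a second table of the same genes as a signal, the count divided by a size factor per library. All tests used the deposited counts. The deposited signal served 1 alternative only.

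Symbols came from GENCODE M21 (GRCm38), which named 20841 of 21640 genes. Groups came from the sample labels. Each library is 1 mouse, and mice are the replicates. No pair of libraries of a group agreed within counting noise (chi-square per gene 15.1 to 871), so none was counted as a library deposited more than once. The study housed mice together, and which of these mice shared a cage or litter is not stated.

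Diets were compared within a time point in edgeR 4.0.16 (R 4.3.3) with TMM factors, filterByExpr, glmQLFit and glmQLFTest, adjusted by Benjamini-Hochberg over all tested genes. The SE is the absolute log2 fold change over the square root of F. The interaction (6W minus 3W) used all 16 libraries. Values of log2 CPM used a prior count of 2. Depths of 30025256 to 48508653 counts leave the spread between mice as the main error of the 9 genes, whose lowest count in a library was 294. The study states n = 3 for CD at 6W without naming the mice, and the 4 deposited mice were used. Levels per kilobase used the union of exons of GENCODE M21. The muscle score is the mean log2 CPM of the 14 muscle genes.

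Besides the 10 genes, up to 3 called genes with the lowest p per pathway list and time point were named. The members and all lists were chosen with earlier results of these data known. Alternatives were DESeq2 1.42.0, other scaling factors and count filters, limma 3.58.1 on log2 of the deposited signal plus 1, 1 fit of all libraries, scaling to 9 thyrocyte lineage genes (Pax8, Nkx2-1, Foxe1, Hhex, Cdh16, Epcam, Cdh1, Krt8 and Krt18), the muscle score as a covariate, and leaving out mice. Of other marker lists, fibroblast genes were called for 1 of 8 at 6W and 3 of 8 at 3W, C cell genes for 2 and 3 of 5, thymus genes for 1 and 0 of 1 tested, and parathyroid and lymphocyte genes for none (3 of 3 parathyroid genes at 6W had an unadjusted p under 0.05 in edgeR). Of 9 thyrocyte marker genes, 4 were higher at 6W and 5 at 3W, and 1 further gene of that list is not reported here. The 9 scaling genes had 2 calls at each time point.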

Additional observations from a re-analysis of the deposited data

Results flagged for a closer look

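In 4 of 36 groups of 4 mice (9 genes, 4 groups), 1 mouse lay far from the others by Dixon's criterion, which chance meets in about 1 in 20 groups. Igfbp4 was at 115 CPM in the CD mouse M48 at 6W, where the other CD mice had 61.3 to 67.0 CPM. Igfbp4 was also high in the HF+SD mouse M7 at 3W, at 105 CPM against 90.5 to 92.2 CPM. Igf1r was low in the CD mouse M55 at 3W, at 119 CPM against 146 to 148 CPM. Irs2 was low in the HF+SD mouse M19y at 3W, at 21.6 CPM against 29.7 to 30.5 CPM.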

How the results depend on the processing

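Of 315 values of the 9 genes under alternatives, 280 kept direction and side of the threshold, 25 lost the call, 2 gained it and 8 turned. Muscle content, the endothelial signal and the small groups limit these results, and 4 mice a group allow calls to hinge on 1 mouse. The causes of the changes listed here were not tested.

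At 6W, 3928 genes, 3 of the 9 and 16 pathway genes were called. The counts were 6181 genes and 29 pathway genes in 1 fit of all 16 libraries, 25 pathway genes under scaling to thyrocyte lineage genes, 2038 genes and 1 of the 9 with the muscle score as a covariate, and 1003, 1 and 5 with M22 as the only CD mouse, which was assumed to vary like the HF+SD mice. With a log2 fold change beyond 1, 2308 genes were called. Leaving out 1 mouse gave 1934 (without M34) to 5743 (without M22) genes, 1 to 3 of the 9 and 9 to 23 pathway genes. The calls split into 2185 higher and 1743 lower, and under scaling to thyrocyte genes into 803 and 4551.

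At 3W, 2560 genes, 2 of the 9 and 18 pathway genes were called. The counts were 1420, 1 and 9 in 1 fit of all libraries, 1 of the 9 under thyrocyte scaling, 1536 genes and 1 of the 9 with the covariate, and 803, 0 and 2 with a log2 fold change beyond 1. Leaving out 1 mouse gave 1448 (without M20y) to 3393 genes, 1 to 2 of the 9 and 9 to 25 pathway genes. DESeq2 called 1 of the 9 for the interaction, and leaving out 1 mouse gave 0 to 2.

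Directions turned at 6W under thyrocyte scaling, which put the median of all genes at -0.51, for Igf1 (-0.16), Igf1r (-0.090), Igfbp3 (-0.083), Igfbp4 (-0.043) and Mlst8 (-0.13), and with M22 as the only CD mouse for Igfbp3 (-0.17), Ghr (0.15) and H19 (1.39). At 3W Igfbp3 ranged from -0.077 to 0.13 with 1 mouse left out, turning without M96, M20y (-0.021) or M31 (-0.011). No paired analysis was possible because mice carry individual names and no number is shared between groups.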
